A study of Mus musculus with 9 samples.

Results

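The interferon response genes examined here are 36 named genes that cells switch on when interferon, a cytokine of antiviral defence, reaches its receptor. They were taken by gene symbol from the deposited table of 17769 genes, where 36 of 36 were found, and 36 of 36 were among the 13608 genes that passed the filter on low counts. RNA was sequenced from bone marrow cells of C57BL/6N mice sorted as MEP (megakaryocyte-erythroid progenitors). E12 cells carried SclCre and an exon 12 mutation of Jak2 and were taken 6 weeks after tamoxifen. VF cells carried SclCre and the V617F mutation of Jak2, and were taken at 12 weeks, as were WT cells, whose labels name neither Cre nor mutation. The labels of all 9 samples give the same schedule of 5 daily tamoxifen injections to switch the mutations on, and each group has 3 libraries, which are E12 1, 2 and 5, VF 1, 2 and 3, and WT 50, 51 and 52. SclCre is a tamoxifen-activated recombinase driven by regulatory sequence of the stem cell gene Scl, so the mutation is switched on in blood stem and progenitor cells.

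Type I interferons bind the receptor pair Ifnar1 and Ifnar2, whose kinases Tyk2 and Jak1 pass the signal to a complex of Stat2 and Irf9 that binds the interferon-stimulated response element (ISRE). Interferon gamma acts through Ifngr1, Ifngr2, Jak1 and Jak2, and its target genes carry the gamma-activated site (GAS). Jak2, the kinase mutated in these mice, therefore belongs to the interferon gamma receptor as well as to the receptors for erythropoietin and thrombopoietin, and interferon is known to drive resting blood stem cells into division.

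What the members share beyond their names was looked for first in their promoters, taken from RefSeq (GRCm38.p6) as 250 bases before to 50 bases after each annotated start. A window was held for 29 of the 36 members, and a gene with several starts was counted once if any of them matched. The ISRE, searched on both strands as GAAA followed, after any 2 bases, by GAAA, was found for 16 of 29 members (55.2%), against 1079 of all 27025 genes with a window (3.99%). The GAS, searched as TTCNNNGAA, was found for 10 of 29 members (34.5%) and 2582 of those 27025 genes (9.55%). Both were found for 5 members, and in Bst2 and Ifitm3 an ISRE and a GAS match share bases. Of the members higher in VF than in WT, 4 of 7 with a window held an ISRE, of those lower 1 of 5 and of those not called 11 of 17. For the GAS these were 2 of 7, 3 of 5 and 5 of 17. In E12 against WT, in the same order, the ISRE was held by 2 of 3, 2 of 8 and 12 of 18. The GAS was held there by 1 of 3, 5 of 8 and 4 of 18. Dhx58, Oas2, Mx1, Mx2, Usp18, Ifi27l2a and Parp14 are named without a window. The 6 members with an exact ISRE match and the smallest p in any comparison are shown in 1 window each, with 60 bases around the match nearest the start of that window, 5′ to 3′ on the strand of the gene, with every ISRE match in capitals.
Gbp3: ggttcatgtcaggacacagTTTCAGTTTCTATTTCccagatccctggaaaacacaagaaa
Gbp2: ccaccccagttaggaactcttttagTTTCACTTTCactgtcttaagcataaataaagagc
Ddx58: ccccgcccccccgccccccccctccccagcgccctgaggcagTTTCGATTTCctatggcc
Trim30a: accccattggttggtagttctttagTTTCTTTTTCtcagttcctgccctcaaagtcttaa
Bst2: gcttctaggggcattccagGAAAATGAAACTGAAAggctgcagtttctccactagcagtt
Oas1a: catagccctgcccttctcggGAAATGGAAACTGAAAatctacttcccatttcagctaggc
The stretches lie at chr3:142559980-142560039 (+ strand), chr3:142620579-142620638 (+), chr4:40239806-40239865 (−), chr7:104465195-104465254 (−), chr8:71537562-71537621 (−) and chr5:120907506-120907565 (−) of GRCm38.p6. In the windows shown, Gbp3, Bst2 and Oas1a hold 2 matches each that overlap, and the other 3 hold 1 match. Trim30a has 1 more match in the window of another annotated start, 2 bases past it, which is not shown. Bst2 and Oas1a carry the element in the direction of the gene, and Gbp3, Gbp2, Ddx58 and Trim30a carry it on the opposite strand. A match is a run of letters and was not tested as a binding site.

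The libraries differed in ways that bear on every comparison below. Total counts ran from 20328414 to 23499914 in E12 libraries, from 19256431 to 21331168 in VF libraries and from 33838681 to 39736096 in WT libraries, and the facility numbers in the labels put the WT libraries in another range than the 6 mutant libraries, so an effect of genotype and one of that difference cannot be told apart. Genes under 1 kb took 6.92% to 8.79% of the counts in E12, 8.24% to 8.97% in VF, and 27.9%, 14.1% and 11.2% in WT 50, 51 and 52. The labels do not say whether the libraries of a group come from separate mice, so p-values measure only the spread between these libraries, which may be technical. Of lineage markers, 18 erythroid genes summed to 9540 to 35880 CPM (counts scaled to the size of the library) in E12, 1393 to 2075 CPM in VF and 25587 to 47218 CPM in WT. For 15 megakaryocyte genes the sums were 503 to 616 CPM in E12, 2354 to 3023 CPM in VF and 69.0 to 191 CPM in WT, where Itgb3, Gp6 and Ppbp had no count. For 12 stem and multipotent progenitor genes they were 652 to 964 CPM in E12, 1979 to 1995 CPM in VF and 214 to 285 CPM in WT, where Mecom, Procr and Tek had no count. The erythroid sums were thus lowest in VF and the megakaryocyte and stem cell sums lowest in WT. For 13 neutrophil genes the sums were 2078 to 2320 CPM in E12, 7170 to 13164 CPM in VF and 515 to 8002 CPM in WT. For 11 B cell genes they were 34.2 to 793 CPM, 151 to 309 CPM and 457 to 4754 CPM. In WT, 16 T and NK genes summed to 166 to 1200 CPM and 15 monocyte and macrophage genes to 74.5 to 810 CPM. WT 50 was the highest WT library for each of these leukocyte sums, and also for the erythroid and megakaryocyte sums. The stem and multipotent progenitor sum was highest in WT 52. The library size behind CPM includes a scaling factor (TMM), which was 0.456 in WT 50, 0.841 in WT 51 and 0.869 in WT 52. A lower factor raises every CPM of that library. In bulk libraries fewer cells of a type and less RNA per cell cannot be told apart. The part of these differences in the results below was not tested.

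The members differed widely in level. Per length, and averaged over each group, Ifitm3 stood highest in the mutants, with 297 ± 17.6 RPKM (CPM per kilobase of gene) in E12, 582 ± 50.9 RPKM in VF and 724 ± 707 RPKM in WT (SD, n = 3 each). Psmb8 came next in the mutants, with 224 ± 33.9 RPKM in E12, 516 ± 30.8 RPKM in VF and 773 ± 732 RPKM in WT. In WT Psmb8 stood above Ifitm3, by less than the SD of either. Ifit3, Mx1, Mx2, Oas2 and Cxcl10 had the lowest means over all libraries, with means of 0.315 to 1.01 RPKM in E12, 0.251 to 1.03 RPKM in VF and 0.0438 to 0.556 RPKM in WT. These 5 genes are textbook markers of an acute type I interferon response. Within E12 each of them was highest in E12 5, and whether such a response took place was not tested.

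**Figure D1:**
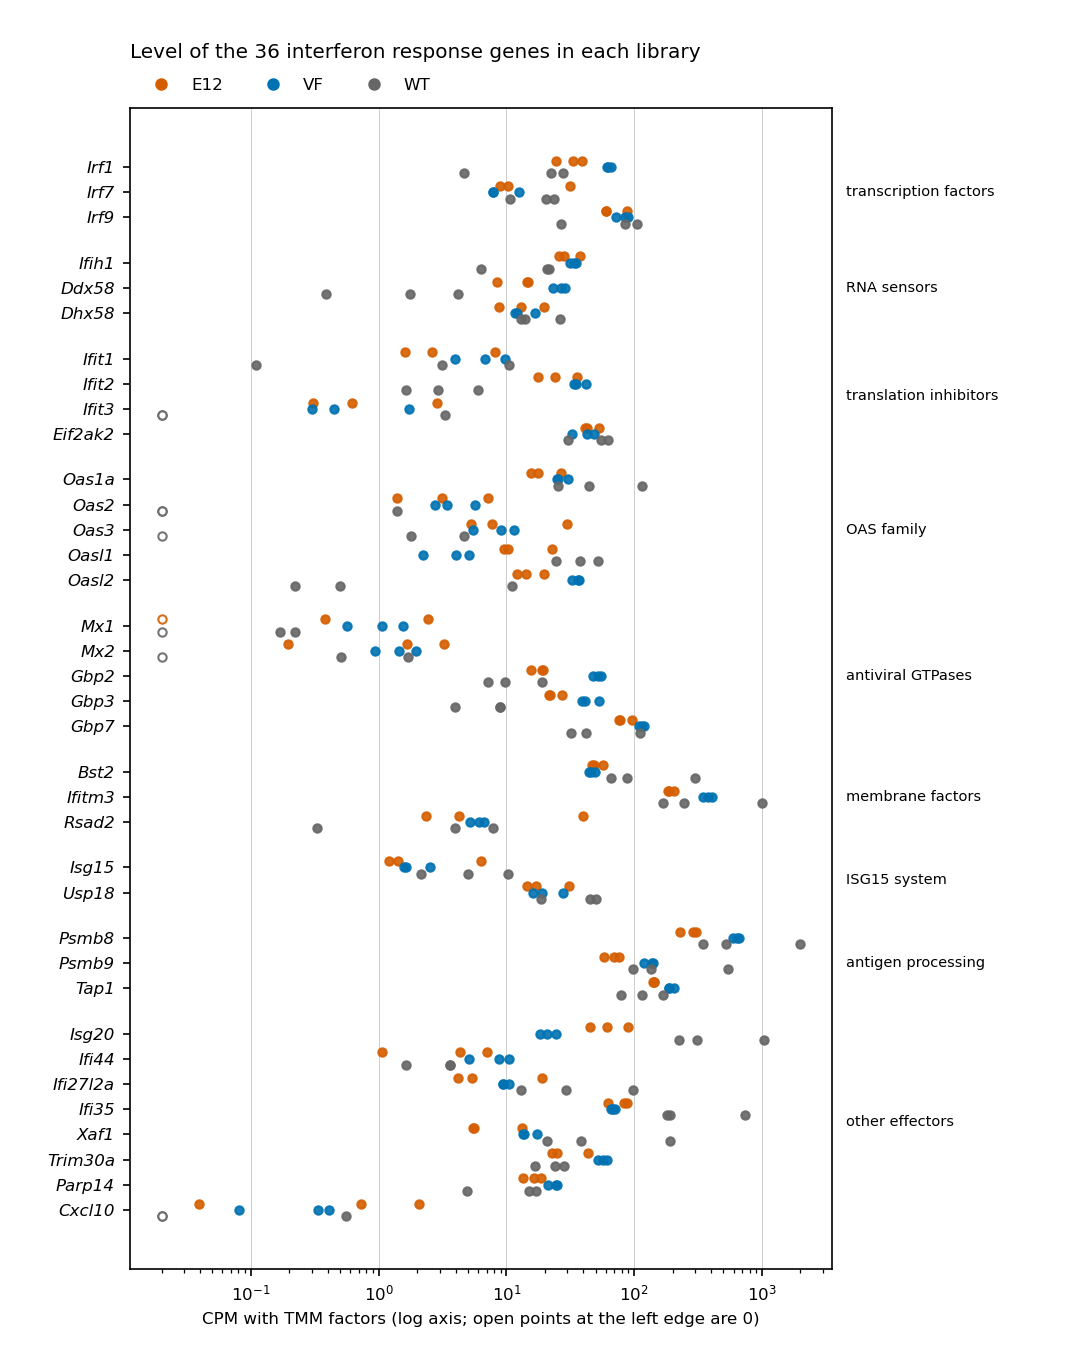
Level of each of the 36 members in each of the 9 libraries in CPM on a log axis, with E12 above VF and VF above WT in each row and genes grouped by role. The 3 VF points lie close together for most genes while the WT points spread widely, as for Isg20, where WT libraries reach 1046 CPM and VF libraries at most 24.6 CPM.

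In VF against WT, 7 of the 36 members rose (Irf1, Ddx58, Ifit2, Oasl2, Gbp2, Gbp3 and Trim30a) and 6 fell (Oasl1, Bst2, Isg20, Ifi27l2a, Ifi35 and Xaf1). Over all 13608 genes 48.6% were called, 27.7% higher and 20.9% lower, by edgeR's quasi-likelihood test at a Benjamini-Hochberg adjusted p under 0.05, and the members' 13 of 36 is a smaller share than that. The median log2 fold change was 0.53 over the members and 0.36 over all genes. Values given below with an SE are log2 fold changes, called log2 differences, from the same fit. In E12 against WT, 3 members rose (Ddx58, Ifit2 and Gbp3) and 9 fell (Oas1a, Oasl1, Bst2, Psmb8, Psmb9, Isg20, Ifi27l2a, Ifi35 and Xaf1), beside 42.0% of all genes called (23.9% higher and 18.1% lower), with a median of 0.20 over the members and 0.36 over all genes. E12 also differs from WT in time after tamoxifen, so genotype and time cannot be told apart. Both comparisons share the WT libraries. By library, 14 of 36 members stood above WT and 6 below WT in every VF library, beside 62.7% of all genes without overlap, and 16 overlapped. In E12 against WT 7 stood above and 7 below, beside 53.3% of all genes without overlap, and 22 overlapped. These shares of all genes were not split by direction, so the members' split cannot be set against them. In fits of only the groups compared, 5 members were higher and 4 lower in VF than in WT (37.4% of all genes called, 21.3% higher and 16.2% lower), and 2 were higher and 3 lower in E12 than in WT (23.2% called, 12.7% higher and 10.5% lower). Without WT 52 the members called numbered 23 in VF against WT, beside 56.9% of all genes, and 19 in E12 against WT, beside 52.3%. The calls gained without WT 52 went both ways. In VF, Irf7, Eif2ak2, Oas1a, Isg15, Usp18 and Psmb9 were then lower, and Ifit3, Oas2, Gbp7 and Tap1 higher. In E12, Eif2ak2, Ifitm3 and Usp18 were then lower, and Ifit3, Oas2, Oasl2 and Gbp7 higher. Without any one VF library they numbered 8 in VF against WT, beside 34.2% to 35.6% of all genes. Without E12 1 or E12 2 they numbered 6 and 5 in E12 against WT, beside 30.4% and 25.9% of all genes.

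Among the transcription factors, Irf1, which carries the interferon gamma signal to a second set of promoters, had 24.6, 38.7 and 33 CPM in E12, 65.7, 61.8 and 62.5 in VF and 4.64, 27.9 and 22.5 in WT. All VF libraries lay above all WT libraries, with a log2 difference of 1.78 ± 0.54 (SE), adjusted p = 0.0223, a call that was lost without any one of the VF libraries. E12 and WT overlapped for Irf1 (0.80 ± 0.53 (SE), adjusted p = 0.244). Irf9, the DNA-binding partner of Stat2, had 60.2, 60.7 and 87.9 CPM in E12, 71.6, 89.8 and 84.6 in VF and 26.9, 84.8 and 106 in WT. For Irf9 the groups overlapped in both comparisons, and the WT libraries alone covered a range wider than that of both mutants. Irf7, which amplifies type I interferon production, ranged from 8.99 to 31.5 CPM in E12, 7.91 to 12.6 CPM in VF and 10.6 to 23.8 CPM in WT, and was not called.

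Of the RNA sensors, Ddx58, the gene of RIG-I, which binds viral RNA with a free triphosphate end, had 8.47, 14.5 and 14.8 CPM in E12, 23, 29 and 26.9 in VF and 0.386, 1.78 and 4.18 in WT. Here both mutants lay above WT in every library, with a log2 difference of 3.62 ± 0.72 (SE), adjusted p = 0.00381 in VF against WT, and 2.56 ± 0.69 (SE), adjusted p = 0.0163 in E12 against WT. The E12 call was lost without E12 2. Dhx58, the regulator LGP2 and the sensor with the highest mean level per length, had 8.71, 13 and 19.8 CPM in E12, 11.7, 16.6 and 12 in VF and 13.9, 26.4 and 13 in WT, and the groups overlapped. Ifih1, the gene of MDA5, which binds long double-stranded RNA, ranged from 26 to 37.7 CPM in E12, 31.5 to 35.1 CPM in VF and 6.29 to 21.4 CPM in WT. Both mutants lay above WT for Ifih1 without passing the threshold (1.05, adjusted p = 0.0675 in VF, and 0.92, adjusted p = 0.107 in E12).

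Ifit2, whose protein binds viral RNA and restrains its translation, had 17.6, 24.1 and 35.7 CPM in E12, 34.8, 41.8 and 33.9 in VF and 2.93, 5.95 and 1.63 in WT. Every mutant library exceeded every WT library, and the log2 difference was 3.39 ± 0.50 (SE), adjusted p = 0.00110 in VF against WT, and 2.88 ± 0.49 (SE), adjusted p = 0.00349 in E12 against WT. Its relatives Ifit1 and Ifit3, neighbours on chromosome 19, did not show the same pattern. Ifit1 ranged from 1.60 to 8.16 CPM in E12, 3.94 to 9.69 CPM in VF and 0.110 to 10.5 CPM in WT, and Ifit3 stayed at or below 3.33 CPM in all 9 libraries. Reads of Ifit1 and of the overlapping Ifit1bl1, and of Ifit3 and its near copy Ifit3b, may have been split by the counting, so both values are uncertain. Eif2ak2, the gene of the kinase PKR, which stops translation when it meets double-stranded RNA, had 41, 43 and 52.9 CPM in E12, 32.8, 48.8 and 42.9 in VF and 62.5, 55.4 and 30.4 in WT. Its groups overlapped, and the transcribed pseudogene Gm6548 overlaps it in the count table.

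The oligoadenylate synthetase family, which makes the messenger that activates RNase L and also holds inactive relatives, had 1 member higher and 1 lower in VF than in WT, and 0 higher and 2 lower in E12. Oasl1, an inactive relative known in mice to hold down Irf7 translation, had 10.3, 9.60 and 22.6 CPM in E12, 2.21, 5.07 and 4.01 in VF and 24.3, 52 and 37.6 in WT. Its 3 groups did not overlap, with VF lowest and E12 between VF and WT. The log2 difference of Oasl1 was −3.33 ± 0.51 (SE), adjusted p = 0.00129 in VF against WT, and −1.42 ± 0.48 (SE), adjusted p = 0.0387 in E12 against WT, where leaving out any of E12 1, E12 2, VF 2, VF 3 or WT 51 took the call away. Oasl2, an interferon-inducible relative of Oasl1, had 12.1, 14.2 and 19.8 CPM in E12, 32.4, 36.9 and 36.3 in VF and 0.221, 0.498 and 11 in WT. VF lay above WT in every library (3.15 ± 1.15 (SE), adjusted p = 0.0466), and E12 also lay above WT but was not called (1.96 ± 1.10 (SE), adjusted p = 0.178). WT 52 held most of the Oasl2 counts of WT, and without it Oasl2 was called in E12 as well (log2 fold change 5.08, adjusted p = 0.000463) and stood at 6.27 in VF. The call for VF was lost without any one of the 6 mutant libraries or WT 51. Oas1a, a synthetase with the near copy Oas1g, had 17.6, 15.6 and 26.6 CPM in E12, 25.3, 30.4 and 24.7 in VF and 114, 44.2 and 25.3 in WT. E12 and WT overlapped for Oas1a although the test called it lower in E12 (−1.62 ± 0.50 (SE), adjusted p = 0.0295), and the call was lost without E12 1 or E12 2. Oas2 and Oas3, also synthetases, ranged from 0 to 4.67 CPM in WT. In the mutants both lay above WT in every library and were not called, with log2 fold changes from 1.98 to 3.05. Without WT 52, the 1 WT library with an Oas2 count, Oas2 was called higher in both mutants (adjusted p = 0.00188 in VF and 0.00216 in E12).

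Of the antiviral GTPases, Gbp2, a guanylate-binding protein that attacks the vacuoles of intracellular pathogens, had 19.4, 15.5 and 19.1 CPM in E12, 47.6, 51.8 and 54.8 in VF and 7.18, 19 and 9.72 in WT. VF lay above both other groups, with 2.10 ± 0.37 (SE), adjusted p = 0.00223 against WT. E12 overlapped WT at 0.59 ± 0.35 (SE), adjusted p = 0.208. Gbp3, of the same gene cluster on chromosome 3, had 21.9, 27.3 and 21.7 CPM in E12, 52.9, 41.2 and 39.4 in VF and 3.98, 8.88 and 8.94 in WT. Its 3 groups did not overlap, with VF highest and E12 between VF and WT, and the log2 difference was 2.61 ± 0.36 (SE), adjusted p = 0.000817 in VF against WT, and 1.70 ± 0.35 (SE), adjusted p = 0.00636 in E12 against WT. Gbp7, the third member of the cluster here, had 76.7, 77.2 and 96.6 CPM in E12, 119, 116 and 109 in VF and 32.2, 42 and 111 in WT. WT 52 reached the VF libraries, and Gbp7 was not called against WT in either mutant, but without WT 52 it was called higher in both (1.35, adjusted p = 0.00110 in VF, and 0.90, adjusted p = 0.00667 in E12). Mx1 and Mx2, genes of a family of dynamin-like GTPases, stayed at or below 3.26 CPM in all 9 libraries.

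Among factors that act at membranes, Bst2, tetherin, which holds budding virus particles on the cell, had 48.6, 47.1 and 57.4 CPM in E12, 46.2, 49.5 and 44.1 in VF and 301, 87.8 and 66 in WT. Both mutants lay below all WT libraries, with −1.70 ± 0.51 (SE), adjusted p = 0.0215 in VF against WT, and −1.57 ± 0.51 (SE), adjusted p = 0.0336 in E12 against WT, and the calls were lost without any one VF library, in E12 also without any one E12 library. Ifitm3, which blocks viral entry from endosomes, had 186, 186 and 206 CPM in E12, 409, 378 and 343 in VF and 996, 244 and 167 in WT. WT spanned the values of both mutants for Ifitm3, with WT 50 far above the rest, and without WT 50 it was called higher in VF than in WT, at a log2 difference of 0.73 (adjusted p = 0.0186). Rsad2, the gene of viperin, which makes a chain-terminating nucleotide, had 4.26, 2.36 and 39.6 CPM in E12, 6.11, 6.71 and 5.23 in VF and 0.331, 7.85 and 3.98 in WT. E12 5 stood far above the 8 other libraries for Rsad2, and no comparison called it.

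In the ISG15 system, Usp18, the protease that removes Isg15 from proteins and dampens Ifnar2, had 17.1, 14.4 and 31.1 CPM in E12, 16.1, 28 and 19.1 in VF and 44.7, 50.4 and 18.7 in WT. Isg15, the ubiquitin-like modifier, had 1.21, 1.41 and 6.30 CPM in E12, 1.65, 2.53 and 1.58 in VF and 10.4, 4.98 and 2.14 in WT. For both the groups overlapped, and neither was called in any comparison of all 9 libraries. Without WT 52, Isg15 was called lower in VF than in WT, and Usp18 was called lower in both mutants.

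The antigen-processing members, which cut and carry peptides for MHC class I, were among the most abundant. Psmb8, a catalytic subunit of the immunoproteasome, had 291, 305 and 227 CPM in E12, 661, 643 and 589 in VF and 1974, 520.4 and 343 in WT. E12 lay below both other groups (−1.79 ± 0.58 (SE), adjusted p = 0.0355 against WT), while VF lay within the WT range. Psmb9, another catalytic subunit, had 69.6, 76.2 and 57.6 CPM in E12, 139.9, 139 and 119 in VF and 545, 137 and 98.2 in WT. The order was the same as for Psmb8, with −1.94 ± 0.57 (SE), adjusted p = 0.0245 in E12 against WT. Without any one of the E12 libraries both calls were lost, and that of Psmb8 also without any one VF library. Tap1, a subunit of the peptide transporter, had 141, 144 and 142 CPM in E12, 187, 205 and 186 in VF and 79.3, 115 and 169 in WT, and VF lay above WT in every library without a call (0.67 ± 0.28 (SE), adjusted p = 0.0767). In contrast to Psmb8 and Psmb9, Tap1 did not stand highest in WT 50.

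Of the other effectors, Isg20, an exonuclease that degrades viral RNA, had the largest log2 fold change of the 36 members in size. It had 60.7, 44.8 and 90.1 CPM in E12, 20.7, 24.6 and 18.5 in VF and 1046, 309.5 and 226 in WT. The 3 groups did not overlap, with VF lowest and E12 between VF and WT, and the log2 difference was −4.63 ± 0.63 (SE), adjusted p = 0.000776 in VF against WT, and −3.01 ± 0.58 (SE), adjusted p = 0.00521 in E12 against WT. Ifi35, a leucine-zipper protein that pairs with Nmi, had 83.6, 62.4 and 88.4 CPM in E12, 66, 70.8 and 68.8 in VF and 731, 179 and 189 in WT. It fell in VF (−2.42 ± 0.53 (SE), adjusted p = 0.00586) and in E12 (−2.23 ± 0.53 (SE), adjusted p = 0.0102), with all mutant libraries below all WT libraries. Xaf1, a factor linked to cell death that opposes the apoptosis inhibitor XIAP, had 5.505, 5.56 and 13.2 CPM in E12, 13.5, 17.3 and 13.7 in VF and 189.9, 38.6 and 20.9 in WT. Every mutant library lay below every WT library for Xaf1, with −2.48 ± 0.76 (SE), adjusted p = 0.0242 in VF against WT, and −3.36 ± 0.79 (SE), adjusted p = 0.0102 in E12 against WT, and the VF call was lost without WT 50 or any one VF library. Ifi27l2a, a small membrane protein whose gene overlaps Ifi27 in the count table, had 5.35, 4.19 and 18.9 CPM in E12, 9.34, 10.5 and 9.33 in VF and 98.5, 29 and 13 in WT. VF lay below WT and E12 overlapped WT through E12 5, with log2 fold changes of −2.27 (adjusted p = 0.0390) in VF against WT and −2.30 (adjusted p = 0.0420) in E12 against WT. Leaving out WT 50, E12 1 or any one VF library took both calls away, and leaving out E12 2 that in E12.

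Trim30a, which in mice restrains signals from Toll-like receptors, had 22.7, 25.1 and 43.2 CPM in E12, 51.9, 57.2 and 61.5 in VF and 24, 28.2 and 16.8 in WT. VF lay above both other groups, at 1.31 ± 0.31 (SE), adjusted p = 0.00865 against WT. Parp14, an ADP-ribosyltransferase, had 13.5, 16.5 and 18.5 CPM in E12, 21.2, 24.3 and 25 in VF and 17, 15.1 and 4.93 in WT, and VF lay above WT in every library without a call (0.93 ± 0.44 (SE), adjusted p = 0.105). Ifi44 and the chemokine gene Cxcl10, which overlaps Art3, stayed at or below 10.4 CPM in all 9 libraries and were not called.

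The direction of the calls followed gene length, as it did over the whole table. The 7 members higher in VF than in WT were 2455 to 4943 bases long (median 3360), and the 6 lower members were 766 to 2598 bases long (median 1467.5). In E12 against WT the 3 higher members were 2972 to 4943 bases long and the 9 lower members 766 to 2598 bases. Over all genes the median log2 fold change was −1.77 in VF against WT and −1.84 in E12 against WT for genes under 1 kb. For genes of 3 to 5 kb it was 0.89 in VF against WT and 0.91 in E12 against WT. With an offset for gene length in each library, 5 members were higher and 8 lower in VF than in WT, beside 14.6% and 36.7% of all genes (51.3% called), and the medians were −0.39 over the members and −0.54 over all genes. The calls of Ddx58 (2.14), Ifit2 (1.90), Gbp2 (1.32) and Gbp3 (1.55) stayed on the higher side. Those of Oasl1 (−3.84), Isg20 (−4.51), Ifi35 (−1.97), Xaf1 (−3.69) and Bst2 (−0.43) stayed on the lower side, Bst2 above the median of all genes. Irf1 (0.60), Oasl2 (2.27), Trim30a (−0.15) and Ifi27l2a (−1.09) were no longer called, Ifitm3 (1.22) became higher, and Dhx58 (−1.18), Eif2ak2 (−1.86) and Oas1a (−1.55) became lower. In E12 against WT the offset gave 2 members higher, Ifit2 (1.53) and Gbp3 (0.78), and 7 lower, beside 10.9% and 27.2% of all genes (38.1% called). Oas1a, Oasl1, Isg20, Ifi35 and Xaf1 stayed lower, Eif2ak2 (−1.53) and Tap1 (−0.69) became lower, and Ddx58 (1.30), Bst2 (−0.11), Psmb8 (−0.92), Psmb9 (−0.45) and Ifi27l2a were no longer called. The sign of the log2 fold change turned with the offset for 12 of 36 members in VF against WT and for 11 in E12 against WT. Among them in VF were Ifih1 (−0.54), Gbp7 (−0.66), Tap1 (−0.38) and Parp14 (−0.87), and in E12 Ifih1 (−0.42), Gbp7 (−0.88) and Parp14 (−1.12). The whole table shifted the same way. Of all 13608 genes, those with a log2 fold change above 0 went from 7861 to 4998 in VF against WT. In E12 against WT they went from 7969 to 5134, with a median of −0.39 after the offset. How many of all genes turned sign was not counted.

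**Figure D2:**
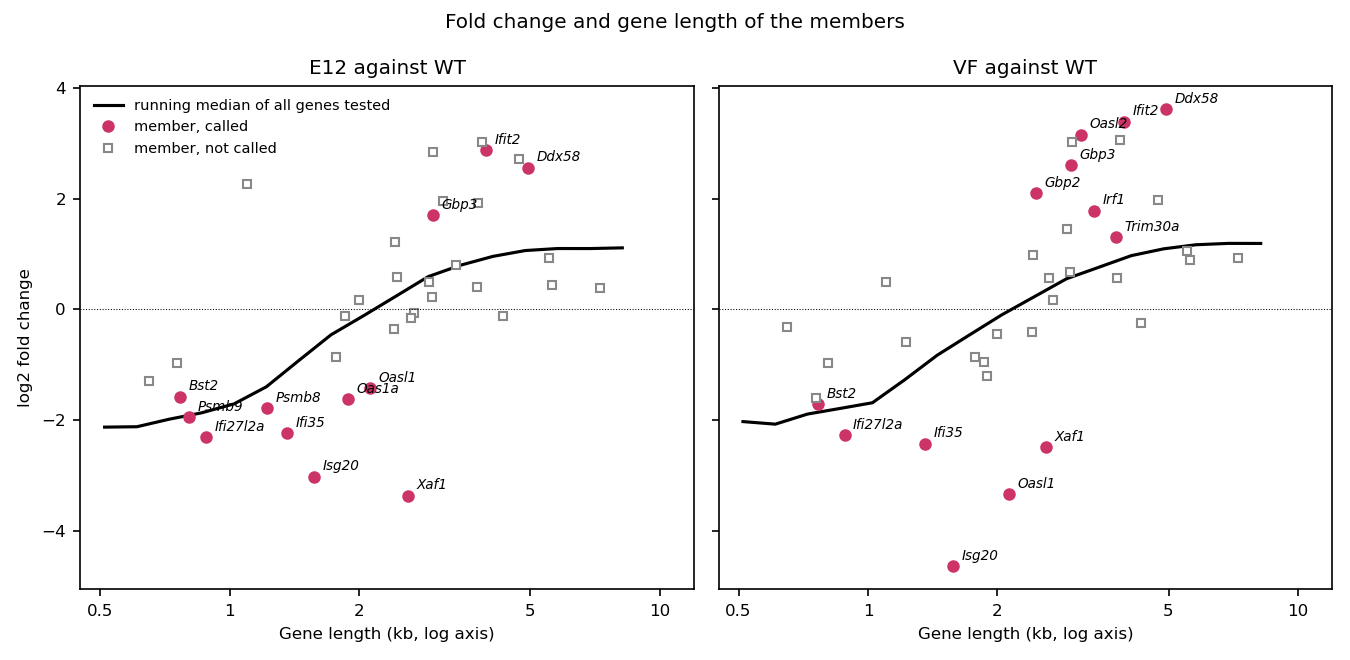
Log2 fold change of each member against gene length in kb on a log axis, for E12 against WT and VF against WT, with the running median of all genes tested as a line. Filled points are called members, and the higher ones lie to the right of most lower ones, along the rise of the line.

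E12 against VF compares the mutant groups with each other, within 1 range of library numbers. When all 9 libraries shared 1 estimate of the spread, 0 of 36 members were called by edgeR, beside 3.21% of all genes (2.19% higher and 1.02% lower). In that fit 5 members had an unadjusted p under 0.05, beside 2415 of all 13608 genes. DESeq2 called 3 members, beside 12.7% of all genes, and limma-voom 1, beside 6.79%. When only the 6 mutant libraries were fitted, 14 members were called, 2 higher and 12 lower in E12, beside 48.0% of all genes (25.4% higher and 22.6% lower). The median over the members was −0.16 in that fit and −0.01 over all genes. In the libraries themselves, 2 members stood above VF and 13 below VF in every E12 library, and 21 overlapped, beside 28.2% of all genes above and 31.3% below (59.5% without overlap). The result for E12 against VF therefore depends on whether the WT libraries enter the estimate of the spread. These groups differ in time after tamoxifen as well as in the mutation, and genotype and time cannot be told apart. Of the lineage markers, 15 of 18 erythroid genes were higher in E12 than in VF and 6 of 14 tested megakaryocyte genes lower in the fit of all 9 libraries, and their part in the values of the members was not tested.

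Of the 12 members lower in E12 by the fit of the 6 mutant libraries, Gbp2 had the smallest p (−1.48 ± 0.13 (SE), adjusted p = 8.41e-05), with 15.5 to 19.4 CPM in E12 and 47.6 to 54.8 CPM in VF. Psmb8 (−1.17 ± 0.12 (SE), adjusted p = 0.000156), Psmb9 (−0.94 ± 0.12 (SE), adjusted p = 0.000419) and Tap1 (−0.41 ± 0.08 (SE), adjusted p = 0.00359) were lower together, so that all 3 antigen-processing members were lower in E12. Ifitm3 was lower by a similar step (−0.93 ± 0.10 (SE), adjusted p = 0.000203). Irf1 (−0.94 ± 0.17 (SE), adjusted p = 0.00266), Ddx58 (−1.02 ± 0.24 (SE), adjusted p = 0.00833) and Oasl2 (−1.16 ± 0.20 (SE), adjusted p = 0.00202), which had been higher in VF than in WT, were lower in E12 than in VF. Gbp3 (−0.88 ± 0.16 (SE), adjusted p = 0.00260) and Gbp7 (−0.42 ± 0.12 (SE), adjusted p = 0.0177) were also lower, so that all 3 Gbp members were lower in E12. Trim30a (−0.87 ± 0.24 (SE), adjusted p = 0.0184) and Parp14 (−0.50 ± 0.17 (SE), adjusted p = 0.0379) were the last of the 12. The 2 higher in E12 were Oasl1 (1.95 ± 0.43 (SE), adjusted p = 0.00635) and Isg20 (1.65 ± 0.25 (SE), adjusted p = 0.00102). In the fit of all 9 libraries with the offset for gene length, 4 of these 14 were called, Oasl1 (2.02), Isg20 (1.76), Gbp2 (−1.39) and Ifitm3 (−0.77), beside 9.77% of all genes (7.77% higher and 1.99% lower). With WT 50 left out of the 9 libraries, 9 members were called, beside 23.5% of all genes, 1 without WT 51 (4.80%) and 2 without WT 52 (8.89%). With E12 5 left out of the 6 mutant libraries, a setting chosen after seeing the data, 21 members were called, 2 higher and 19 lower, beside 6831 of 13653 genes tested.

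**Figure D3:**
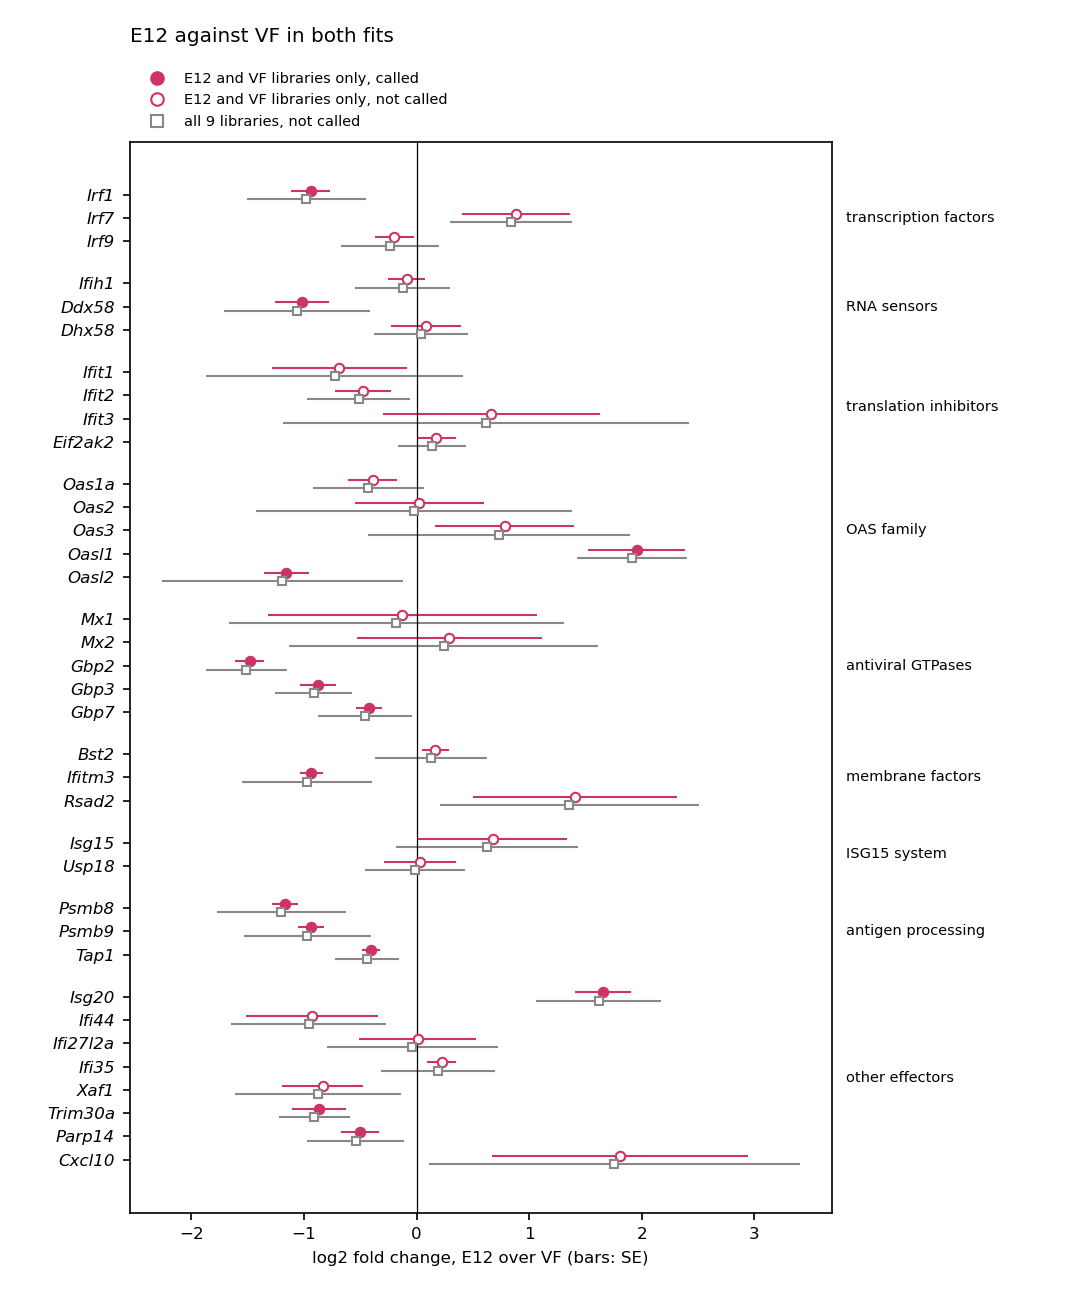
Log2 fold change of each member in E12 over VF with its SE, as circles for the fit of the 6 mutant libraries and squares for the fit of all 9 libraries. The estimates are close to each other while the SE of the squares is wider, so that 14 circles are filled as called and no square is.

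One library of each mutant group stood above its companions for most members. E12 5 was the highest E12 library for 30 of 36 members (83.3%), beside 30.5% of all genes, and lay above the mean of E12 1 and E12 2 by a median of 0.79 on the log2 scale, against −0.03 over all genes. The largest excess in E12 5 was seen for Mx1 (3.74), Rsad2 (3.61), Cxcl10 (2.82) and Ifit3 (2.51). Oas3, with 29.96 CPM in E12 5, had 5.27 and 7.77 CPM in the other E12 libraries. Irf7, with 31.5 CPM in E12 5, had 10.3 and 8.99 CPM there. The exceptions, in which E12 5 was not the highest, were Irf1, Gbp2, Gbp3, Psmb8, Psmb9 and Tap1. In E12 5 the summed level of 11 B cell markers was 793 CPM, against 34.2 and 72 CPM in the other E12 libraries, that of 15 monocyte and macrophage markers 456 CPM against 191 and 194 CPM, and 4 hemoglobin genes took 2.70% of its counts against 0.0885% and 0.0680%. All 11 B cell markers and 14 of 15 monocyte and macrophage markers were highest in E12 5. The dendritic cell sum was also highest there, with 11 of 16 markers. The neutrophil sum was highest in E12 1, although 8 of 13 markers were highest in E12 5. The T and NK sum and the mast cell, basophil and eosinophil sum were highest in E12 2. Of their markers, 13 of 16 and 3 of 10 were highest in E12 5. Whether these markers have a part in the interferon values of E12 5 was not tested.

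VF 2 was the highest VF library for 24 of 36 members (66.7%), beside 34.0% of all genes, with a smaller median excess of 0.23 against 0.01 over all genes. Ifit3, at 1.71 CPM in VF 2, had 0.300 and 0.446 CPM in the other VF libraries. The summed B cell, T and NK, monocyte, dendritic and neutrophil markers of VF were highest in VF 3, and the erythroid and stem cell sums in VF 2 (2075 and 1995 CPM). The erythroid sum was also highest in E12 5 among E12 (35880 CPM), where 14 of 18 erythroid markers were highest, and its part in the values of the members was not tested. In WT no library led the members by such a margin, and WT 50, 51 and 52 were highest for 15, 11 and 10 of them.

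**Figure D4:**
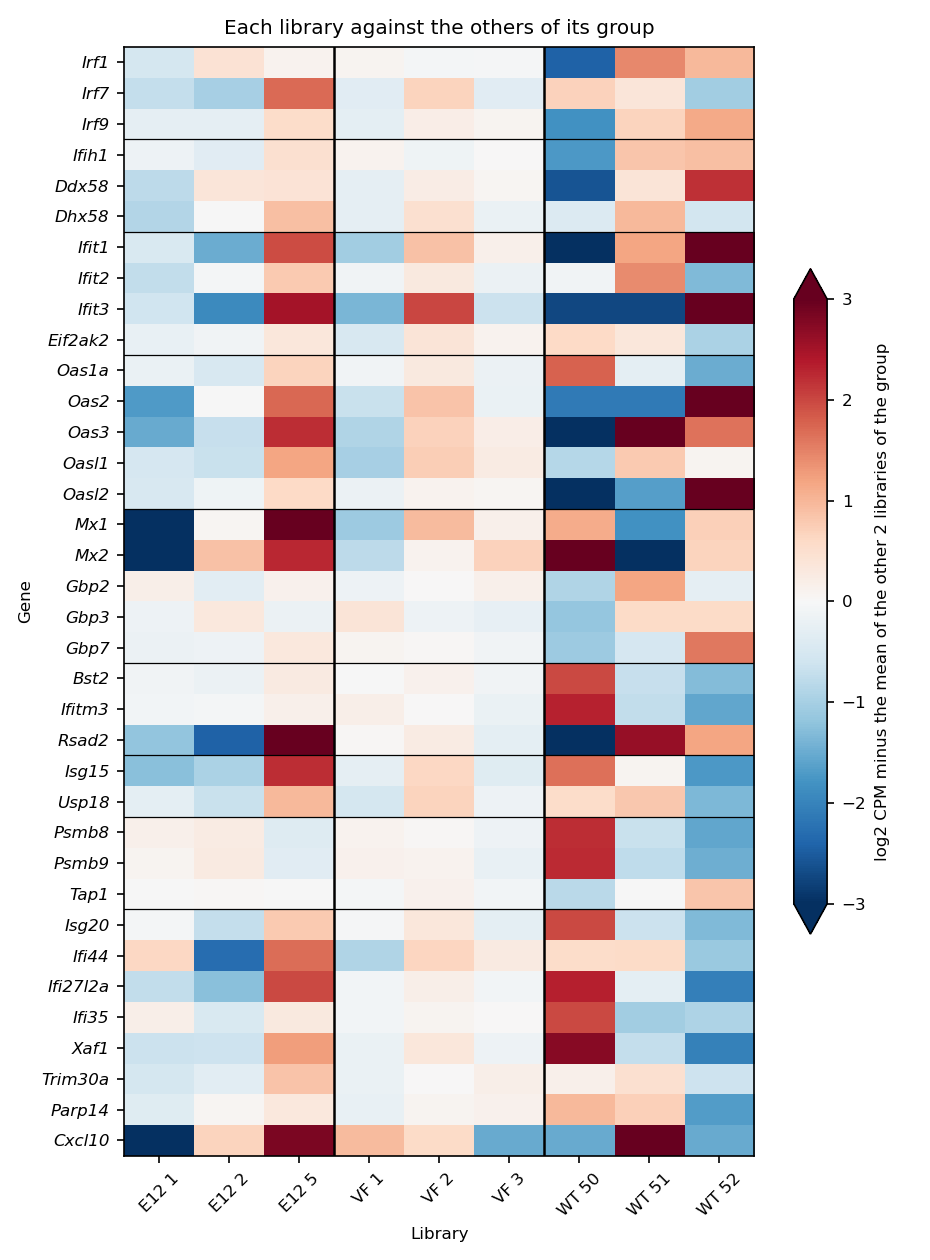
Log2 CPM of each member in each library minus the mean of the other 2 libraries of its group, with red for higher and blue for lower and colours ending at 3 in either direction. The column of E12 5 is red for most genes and that of VF 2 is pale red, while WT columns hold both colours.

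Other genes of the interferon pathway were described from 6 lists of 152 genes in all. The ligand list had 5 of its 21 genes in the table, and 0 passed the filter on low counts. The counts of the other lists stand beside 27.7% of all genes higher and 20.9% lower in VF against WT, and 23.9% and 18.1% in E12. With the length offset these shares of all genes were 14.6% and 36.7% in VF, and 10.9% and 27.2% in E12. Of 10 tested receptor and signalling genes, 4 were higher and 0 lower in VF than in WT, and 2 and 0 in E12, against 0 and 3 in VF and 0 and 2 in E12 with the length offset. Ifnar1, a chain of the type I receptor, had 60.7, 59.6 and 43.3 CPM in E12, 75.7, 92.9 and 94.2 in VF and 26.8, 31.9 and 46.6 in WT, and VF lay above the other groups (1.32 ± 0.27 (SE), adjusted p = 0.00451 against WT). Ifnar2, the other chain, was not called and ranged from 52.7 to 53.3 CPM in E12, 58.7 to 67.6 CPM in VF and 60.7 to 86.9 CPM in WT. With the length offset Ifnar2 was called lower in both mutants (−1.51, adjusted p = 0.00133 in VF, and −1.61, adjusted p = 0.00219 in E12). Jak2 itself had 37.4, 41.9 and 37.2 CPM in E12, 86.8, 92.5 and 83.1 in VF and 15.7, 17.6 and 38.6 in WT. VF lay above the other groups for Jak2 (1.87 ± 0.34 (SE), adjusted p = 0.00278 against WT), with 0.32 and no call under the length offset. E12 lay below VF in the fit of the 6 mutant libraries (−1.14 ± 0.10 (SE), adjusted p = 8.99e-05). Jak1, the kinase shared by both receptors, had 288, 247 and 256 CPM in E12, 218, 217 and 227 in VF and 106, 94.2 and 123 in WT, above WT in both mutants (1.03 ± 0.21 (SE), adjusted p = 0.00468 in VF, and 1.29 ± 0.22 (SE), adjusted p = 0.00312 in E12). With the offset for gene length, Jak1 was lower in VF than in WT (−0.60) and near 0 in E12 (−0.10), and Ifnar1 was −0.36 in VF and lower in E12 (−0.75).

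Stat2 had 23, 28.3 and 22.7 CPM in E12, 23.9, 36 and 33.9 in VF and 15.4, 16.8 and 9.25 in WT, above WT in both mutants and called in VF (1.18 ± 0.31 (SE), adjusted p = 0.0132), with −0.42 under the length offset and no call without VF 2, VF 3 or WT 52. Ifngr1 and Ifngr2 were not called against WT with all 9 libraries, but Ifngr2 was called in both mutants without WT 52, and Ifngr1 was without WT 50. The directions were opposite. Ifngr2 had 6.35 and 11.8 CPM in WT 50 and 51, below every mutant library (20.5 to 24.4 CPM). Ifngr1 had 987 and 809 CPM in WT 51 and 52, above every mutant library (283 to 402 CPM). Tyk2 was called in E12 (0.86 ± 0.25 (SE), adjusted p = 0.0237) and not in VF (log2 fold change 0.39, adjusted p = 0.220), and had −0.54 in E12 and −1.22 in VF with the length offset. The E12 call of Tyk2 was lost without any one E12 library, WT 50 or WT 52.

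Of 12 inhibitors of interferon signalling, 5 were higher and 1 lower in VF than in WT, and 2 were higher and 1 lower in E12. With the length offset 2 were higher and 3 lower in VF, and 2 and 4 in E12. Socs3, which blocks Jak kinases at the receptor, had 2.07, 6.55 and 2.61 CPM in E12 and 9.68, 7.83 and 11.2 in VF and no count in WT, so it was at least 252-fold higher in VF and at least 101-fold higher in E12 when 3 counts over the WT group are taken as the floor. Socs1, the inhibitor of the interferon receptors, had 6.75, 5.18 and 9.51 CPM in E12, 11.2, 7.68 and 10.6 in VF and 0, 0.156 and 0.476 in WT, and both mutants rose (5.45 ± 0.94 (SE), adjusted p = 0.00210 in VF, and 4.99 ± 0.92 (SE), adjusted p = 0.00445 in E12). Of 18 genes for nucleic acid sensing, 11 were higher and 1 lower in VF, and 9 and 1 in E12, against 4 and 2 in VF and 2 and 2 in E12 with the length offset. Over all genes, 27.7% were higher and 20.9% lower in VF, and 23.9% and 18.1% in E12. With the offset these were 14.6% and 36.7% in VF, and 10.9% and 27.2% in E12. Tmem173, the gene of the DNA-sensing adaptor STING, had 40.4, 44.5 and 38.7 CPM in E12, 107, 84.5 and 103 in VF and 6.40, 12 and 5.95 in WT, with 3.59 ± 0.32 (SE), adjusted p = 0.000178 in VF against WT, and 2.34 ± 0.31 (SE), adjusted p = 0.00132 in E12. Tbk1, the kinase below it, rose in both mutants (2.08 in VF and 1.73 in E12), and its target Irf3, the 1 gene of this list that fell, fell in both (−0.94 in VF and −0.96 in E12) and is named after its values were seen.

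Of 19 genes for MHC class I presentation, 2 were higher and 3 lower in VF, and 0 were higher and 5 lower in E12, against 2 and 5 in VF and 0 and 6 in E12 with the length offset. Psme2, a subunit of the proteasome activator, had 81.9, 72.1 and 54.4 CPM in E12, 84.8, 87.1 and 80.2 in VF and 983, 281 and 209 in WT, with −2.55 ± 0.55 (SE), adjusted p = 0.00547 in VF against WT, and −2.82 ± 0.56 (SE), adjusted p = 0.00553 in E12. Psme1 and Psmb10, of the same complexes, also fell in both mutants, and WT 50 was the highest of the 9 libraries for all 3. Of 64 further interferon-inducible genes, 18 were higher and 6 lower in VF, and 12 and 6 in E12. For this list and the presentation list, the shares of all genes were 27.7% higher and 20.9% lower in VF, and 23.9% and 18.1% in E12. With the length offset the balance of the 64 genes turned, to 9 higher and 16 lower in VF and 5 higher and 17 lower in E12. The balance of all genes turned as well, to 14.6% higher and 36.7% lower in VF, and 10.9% and 27.2% in E12. Dtx3l, a ubiquitin ligase, had 34.7, 32.4 and 53.4 CPM in E12, 44.1, 46.8 and 57.4 in VF and 6.79, 7.69 and 8.02 in WT, with 2.72 ± 0.28 (SE), adjusted p = 0.000294 in VF against WT, and 2.42 ± 0.28 (SE), adjusted p = 0.000875 in E12. Ube2l6, the enzyme that passes on Isg15, had 99.5, 83.3 and 173 CPM in E12, 100.3, 123 and 96.1 in VF and 759, 386 and 362 in WT, and it fell in both mutants (−2.24 in VF and −2.08 in E12). In E12 against VF, 0 of the 123 tested genes of these lists were called in the fit of all 9 libraries, beside 3.21% of all genes. In that fit 17 had an unadjusted p under 0.05, beside 2415 of all 13608 genes. DESeq2 called 10, beside 12.7% of all genes. In the fit of the 6 mutant libraries 59 were called, beside 48.0% of all genes (25.4% higher and 22.6% lower). The presentation list then had 1 of 19 genes higher and 13 lower in E12, and the list of further inducible genes 7 higher and 25 lower of 63. E12 5 was the highest E12 library for 44 of those 64 inducible genes (68.8%) and for 2 of the 10 receptor and signalling genes, beside 30.5% of all genes.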

How the data were processed

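RNA of sorted mouse bone marrow MEP was made into Smart-Seq2 libraries from PicoPure extracts, per the labels' protocols, 3 libraries a group. The authors deposited raw counts per gene and log2 expression levels. The upper part of the levels has 1 distribution across libraries to within 0.017, and the levels keep the rank order of the counts within each library. STAR, limma, GRCm38 and mm10 are named in the submitters' processing notes, and no counting tool or annotation is named in those notes. Smart-Seq2 does not mark strand, so reads of overlapping genes cannot be told apart. Total counts of 19256431 to 39736096 a library set the counting error, which is all that bounds against 3 counts cover.

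The counts were filtered with filterByExpr, scaled by TMM and tested with edgeR 4.0.16 (quasi-likelihood test, two-sided, R 4.3.3) in 1 fit of all 9 libraries by group. P-values were adjusted by Benjamini and Hochberg over 13608 genes, with a call under 0.05. CPM and RPKM use TMM library sizes and the gene length the authors give, which also served for the length offset (loess span 0.5). The same fit was also run on simulated counts with known changes, whose results are not given here. Alternatives used limma 3.58.1, DESeq2 1.42.0, other scalings and filters, subsets of libraries and a replicate block.

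Every member is accounted for. Values in every library are given for members called in any comparison and for the highest in RPKM of each role, and also for Rsad2, Isg15, Tap1 and Parp14, chosen after their values were seen. Of other lists at most the 3 genes with the smallest p per comparison are named, with the receptors and kinases, and 1 gene named in that rule is not reported here. The members and lists were chosen with earlier results of these data known. Of 17769 genes in the table, 17716 matched RefSeq by Entrez identifier.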

Additional observations from a re-analysis of the deposited data

How the results depend on the processing

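The counts of called members in the order total, higher and lower are 13, 7 and 6 in VF against WT, 12, 3 and 9 in E12 against WT, and 0, 0 and 0 in E12 against VF. RLE factors kept each count within 1.5 times and moved the median of all genes from 0.36 to 0.21 in VF against WT and to 0.17 in E12 against WT. In VF against WT, limma-voom called 12 higher, limma on the deposited log2 levels called 22 (11 higher, 11 lower) and the replicate block 7 (2 lower), with 18 genes of the other lists in place of 51. Over all genes in that comparison, limma-voom called 55.6% and the deposited levels 49.8%, beside 48.6% in the main fit. Of all 13608 genes, limma-voom called 4944 higher, and the block called 1618 higher and 831 lower. In E12 against WT, limma-voom called 5 higher and 5 lower, the deposited levels 6 higher, a fit of only those groups 5 (3 lower, with 18 genes of the other lists), and the block 1 (1 higher, 0 lower, with 5 of the other lists). Over all genes these settings called 47.0%, 41.6%, 23.2% and 4.57%, beside 42.0% in the main fit. Without WT 50 and E12 5 together the other lists had 59 calls in E12 against WT in place of 38, beside 48.2% of all genes. In E12 against VF, DESeq2 called 3 (1 higher, 2 lower, 10 of the other lists), limma-voom 1 lower (6), the deposited levels 8 (2 higher, 6 lower, 16), a fit of only those groups 14 (2 higher, 12 lower, 59), the length offset 4 (2 higher, 2 lower, 9), and the fit without WT 50 and E12 5 10 (2 higher, 8 lower, 25). Over all genes these settings called 12.7%, 6.79%, 13.1%, 48.0%, 9.77% and 18.4%, beside 3.21% in the main fit. Fitting only VF and E12 without E12 5, chosen after seeing the data, called 21 (2 higher, 19 lower). Leaving out 1 library at a time gave 8 to 23 members (5 to 11 higher, 3 to 12 lower, 29 to 68 of the other lists) in VF against WT, 5 to 19 (2 to 7, 3 to 12, 25 to 64) in E12 against WT and 0 to 9 (0 to 2, 0 to 7, 0 to 33) in E12 against VF. Over all genes these fits called 34.2% to 59.9%, 25.9% to 52.5% and 0.137% to 23.5%, in the same order. Of the called members, 6 of 13 in VF against WT and 1 of 12 in E12 against WT stayed called in all 21 alternatives. The correlation of deviations was 0.0097 and 0.103 for the pairs of VF and E12 libraries that share a number, so the block rests on numbers only.

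Some log2 fold changes turned sign. In VF against WT, Ifit3 was 7.33 without WT 52 (lowest without a library −1.57), Ifitm3 was 1.39 on the deposited levels, 1.22 with the length offset, 0.73 without WT 50 (lowest −1.03) and 0.77 without WT 50 and E12 5, and Psmb8 was 1.25 on the deposited levels. With the length offset, Trim30a was −0.15, Ifnar1 −0.36, Jak1 −0.60, Tyk2 −1.22 and Stat2 −0.42 in VF against WT, and Tap1 was −0.69, Ifnar1 −0.75, Jak1 −0.10 and Tyk2 −0.54 in E12 against WT. With that offset the median over all genes was −0.54 in VF against WT and −0.39 in E12 against WT. The cause of these turns was not tested. Members with few counts rest on single libraries, as Ifit3, called in both mutants without WT 52, where the remaining WT libraries had no count and the fitted value is no bound, and Cxcl10, called in E12 without WT 51 (adjusted p = 0.0477).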
